A study of Mus musculus with 98 samples.

Results

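Chromosomal ends left by Cas9 were compared with ends left by the RAG recombinase at Jk1, a joining segment of the immunoglobulin kappa locus, in the same cell lines. The comparison used the libraries of LigaseIV -/- Line A CJ 1 and LigaseIV -/- Line B CJ 7 at these 2 breaks, which are 24 of the 98 sequenced files and 12 of the 49 libraries of the series. They were chosen by genotype, line and break as labelled and not by a measured value, although earlier results of these data were known. All 4 groups were mouse pre-B lines, Abelson-transformed, held in G1 and lacking DNA ligase IV, so the deletion was shared by every group compared. The Cas9 groups carried a break made by Cas9 with a guide labelled Eb, a name the labels do not explain. The Jk1 groups carried breaks made by RAG and were taken at 48 h by their titles, whereas the Cas9 titles give no time. The titles of the Jk1 libraries of line B also carry the tag shNT, which is not explained, and those of the other 3 groups compared do not. No guide or target sequence and no genome build is given in the sources used here, so neither sequences nor genome coordinates are printed.

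DNA ligase IV seals breaks in non-homologous end joining, the main repair route of cells in G1, and without it ends persist and are open to nucleases. Cas9 cuts both strands of its target at nearly the same place, leaving blunt ends or short 5′ overhangs. RAG makes coding ends closed as hairpins, which the nuclease Artemis opens, often leaving a short 3′ overhang, and signal ends, which are blunt. The tables do not say which kind of RAG end was read, and a coding end still closed would read as an end without loss. The ends were read by HCoDES (hairpin capture of DNA end structures), in which the strands of an end are ligated to each other and the sealed product is amplified and sequenced, so that each read shows where both strands of 1 end stopped.

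Each table pools the 3 libraries of its group and lists end structures with read counts, a structure being 1 combination of a 5′-ending and a 3′-ending strand position. At Cas9 line A held 715311 reads in 800 structures and line B 625862 reads in 684. At Jk1 line A held 315274 reads in 745 structures and line B 304805 in 678, and no table lists a structure with fewer than 2 reads. Reduced to 304805 reads each, the tables would be expected to hold 744, 642, 745 and 678 structures in that order. The cell line was the replicate (n = 2), values below are given for line A and then line B, and a mean comes with its SD over lines. Amplified reads carry no molecular identifiers here and several may come from 1 molecule, so read-based intervals and p-values cover counting error only. A difference was called when both lines differed the same way, both passed Fisher's exact test after Benjamini-Hochberg adjustment at 0.05, and the smaller of the 2 differences was larger than the gap between lines at either break. Of the 72 pairs of shares tested in 36 comparisons, 71 passed the read test, so the spread between lines decided the calls, and 12 comparisons were called. An exact test over lines cannot go below p = 0.5 when paired, so no p over lines is given. The labels put Cas9 in sequencing run 8 and Jk1 in run 4, while the list of read files gives set 9 for Cas9. Break and run cannot be told apart, and no value within a run exists.

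Loss is the number of nt from a reference position to where a strand stopped. The reference was position 37 at Cas9, the most abundant blunt structure, and position 2 at Jk1, the lowest position in the tables. Position 2 was also the lowest listed at Cas9, so ends outside it would not be seen at Jk1. An intact or whole strand at Jk1 therefore means 1 that reached position 2. Both references were set with the data in view, so the share at the Cas9 reference is a description. The KpnI control, an enzyme that leaves a 4-nt 3′ overhang, fixed the sign of the overhang, as 99.2% of its 307425 reads were 1 structure with an overhang of 4 nt.

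Ends at Cas9 were dominated by 1 blunt structure with no loss on either strand, which held 19.5% of reads in line A and 21.7% in line B. It ranked first in both lines, and the next structure was far below it. That next structure lacked 1 nt of the 3′-ending strand only, a 5′ overhang of 1 nt, and held 6.38% and 4.57%. The blunt end 1 nt outside the reference held 4.86% and 4.35%, and the blunt end 1 nt inside it held 4.95% and 2.64%. A 3-nt 5′ overhang, with the 5′-ending strand 2 nt outside and the 3′-ending strand 1 nt inside, held 3.23% and 3.09%. The most abundant Cas9 ends were thus blunt or had short 5′ overhangs in both lines, all within 2 nt of the reference. The reverse 1-nt overhangs were rare. The end that lacked 1 nt of the 5′-ending strand only held 0.330% and 0.736%, and the end whose 3′-ending strand reached 1 nt outside held 0.0165% and 0.0176%. The fourth neighbour, with the 5′-ending strand 1 nt outside, was not listed in either line. The 5′-ending strand stopped outside the reference in 9.15% and 8.00% of reads, and more than 2 nt outside in only 0.0856% and 0.110%.

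At Jk1 the leading structures shared a 5′-ending strand that had lost 4 nt and differed in the 3′-ending strand. The blunt end with 4 nt lost on both strands held 12.1% of reads in line A and 7.49% in line B. The end that kept the whole 3′-ending strand, a 4-nt 3′ overhang, held 9.66% and 8.25%, and it was the most abundant structure of line B. The intermediate ends followed. The 2-nt 3′ overhang held 5.11% and 4.89%, the 1-nt overhang 6.29% and 3.49%, and the 3-nt overhang 4.47% and 3.79%. The end intact on both strands held 4.69% and 2.92%, ranking among the 6 most abundant in both lines. In all, the 5′-ending strand stopped 4 nt inside the reference in 40.4% and 30.2% of Jk1 reads, against 4.78% and 6.57% of Cas9 reads. It stopped at the reference in 29.3% and 27.2% of Cas9 reads, against 5.16% and 3.03% of Jk1 reads. The 3′-ending strand was less concentrated at either break. It stopped at the reference in 21.1% and 26.6% of Cas9 reads and in 18.4% and 11.9% of Jk1 reads. Because the references were set by different rules, these shares at the reference describe each break and do not rank the strands.

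**Figure D1:**
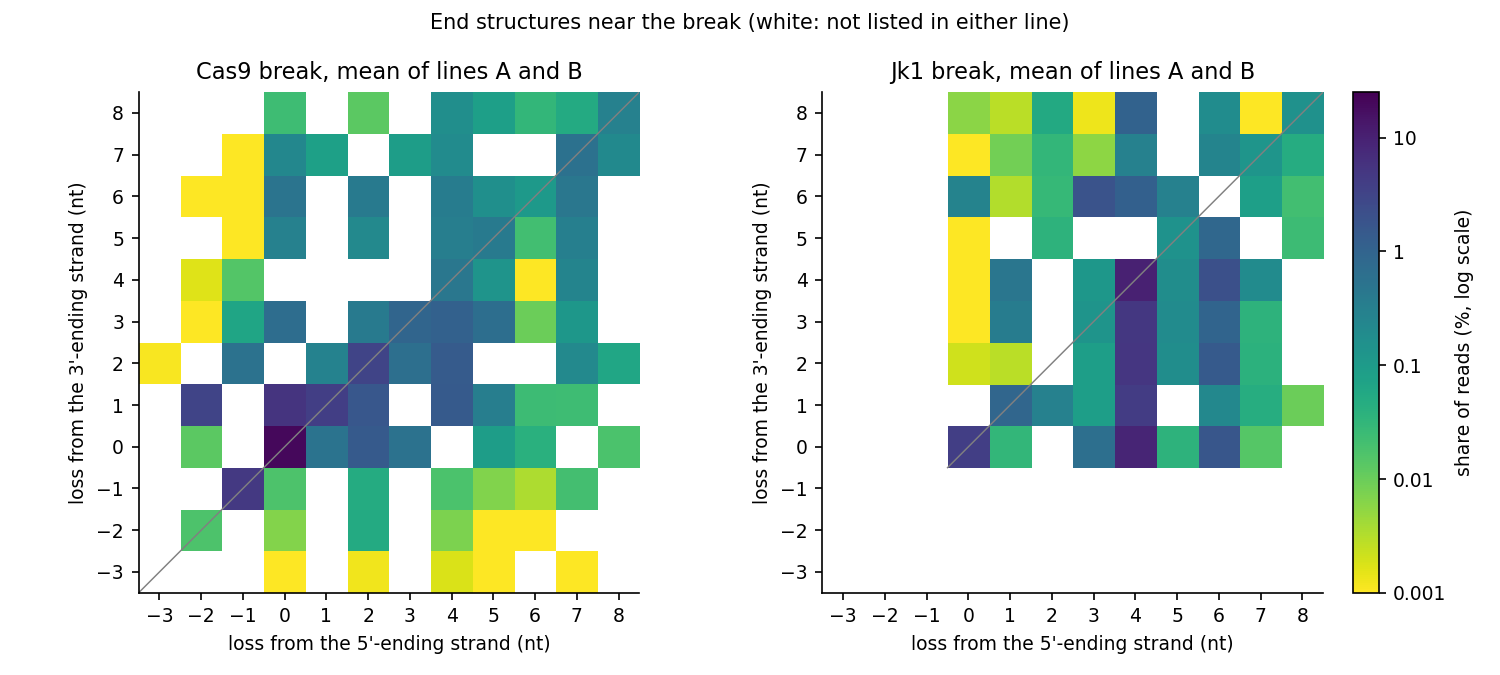
Share of reads of each end structure near the Cas9 break (left) and the Jk1 break (right), as the mean of lines A and B on a log colour scale. The x axis is the loss from the 5′-ending strand and the y axis the loss from the 3′-ending strand, both in nt, with blunt ends on the grey diagonal, 3′ overhangs to its right and 5′ overhangs above it. White cells are structures listed in neither line. Reads at Cas9 gather at no loss, whereas at Jk1 they gather in the column at a 5′-strand loss of 4 nt.

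The counterparts of each break's leading ends held smaller shares at the other break or were unlisted. The end intact on both strands led at Cas9 and was among the 6 most abundant at Jk1. Leading Cas9 ends that reach outside the reference can have no counterpart at Jk1, whose reference is the lowest position listed. Cas9 ends with 4 nt lost on both strands held 0.456% and 0.443% of reads. Cas9 ends whose 5′-ending strand lacked 4 nt and whose other strand lacked 1, 2 or 3 nt held between 0.759% and 2.04%. These ranked 8 to 12 among the Cas9 structures of lines A and B. At Jk1 the blunt end 1 nt inside the reference held 1.26% and 0.524%. The Cas9 end matching the 4-nt 3′ overhang of Jk1 was not listed in either line, nor was the Jk1 end matching the 1-nt 5′ overhang of Cas9. An unlisted end need not have been missing from the cells, for the reason that follows.

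Structures whose strand positions have the same sum give the same ligated sequence wherever the bases between them can pair with each other, and a table can then list only 1 of them. Many structures were unlisted beside abundant ones. Of the 81 combinations with 0 to 8 nt lost from each strand, 25 were listed in neither line at Cas9 and 17 in neither line at Jk1. The leading Cas9 structure is a case in point, since neither the 2-nt 3′ overhang nor the 2-nt 5′ overhang with its sum of positions was listed in either line. A zinc finger nuclease table of line B spans the same range of positions, but no source used here says that it shares the Cas9 target sequence. It gives 28726 reads (4.60%) to the 2-nt 5′ overhang with that sum and does not list the blunt end. Whether this reflects the listing of ties or other ends made by that nuclease was not tested. Likewise the blunt end with 2 nt lost on both strands held 3.26% and 2.97% at Cas9, while its 2-nt and 4-nt relatives were unlisted. The zinc finger table gives 2.76% to the 4-nt 5′ overhang of that sum and lists neither the blunt nor the 2-nt ends. At Jk1 the leading blunt end has its 2-nt 3′ overhang relative listed, at 0.269% and 0.116%. Other Jk1 blunt ends were unlisted beside abundant relatives. The blunt end with 2 nt lost on both strands was listed in neither line, while the 4-nt 3′ overhang of that sum held 9.66% and 8.25%. The blunt end with 6 nt lost on both strands was also unlisted, while its 4-nt 5′ overhang relative held 1.03% and 1.04%. The sequence was not available to test which structures read alike. Such ties cannot change a length from odd to even, nor turn an odd 3′ overhang into an odd 5′ overhang, since a base does not pair with itself. Results by overhang are therefore given both as the tables list them and for sets that limit such mixing. Only all odd 3′ and all odd 5′ overhangs are sets that ties do not mix. Blunt ends pooled with 2-nt overhangs could still exchange with 4-nt overhangs, and 5′ overhangs of 1 or 3 nt with longer odd ones.

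As listed, blunt ends made up a larger share at Cas9 than at Jk1. They held 40.7% and 40.0% at Cas9 and 21.6% and 15.8% at Jk1, with means of 40.3% ± 0.491 and 18.7% ± 4.09 (SD, n = 2 lines). The difference was 19.1 points in line A and 24.2 points in line B, larger than the 5.79-point gap between lines at Jk1, and it was called. Without the most abundant structure of each table it was 15.6 and 6.17 points and no longer called, and with each structure counted once 0.673 and 3.32 points. With 2-nt overhangs of both kinds added to the blunt ends, the shares were 45.99% and 49.1% at Cas9 and 37.1% and 31.5% at Jk1, still a called difference. With 4-nt overhangs added as well they were 50.6% and 54.0% at Cas9 and 55.0% and 51.3% at Jk1. That difference was −4.38 points in line A and 2.69 points in line B, of opposite sign and not called. How far the blunt excess at Cas9 exceeds what ties could assign to blunt ends cannot be told from these tables.

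3′ overhangs were the larger class at Jk1, where they held 58.0% and 58.2% of reads, against 31.4% and 42.5% at Cas9. Means were 58.1% ± 0.132 at Jk1 and 36.9% ± 7.83 at Cas9 (SD, n = 2 lines). The difference of −26.6 and −15.7 points was called, since the lines differed by 11.1 points at Cas9 and by 0.186 points at Jk1. Short overhangs carried it. 3′ overhangs of 1 to 4 nt held 46.8% and 45.3% at Jk1 and 17.3% and 28.4% at Cas9, a called difference. At Jk1 each length from 1 to 4 nt held between 9.89% and 13.5% of reads, a plateau that stopped at 5 nt with 2.20% and 2.72%. At Cas9 the share declined over these lengths from 6.81% and 9.48% at 1 nt to 2.70% and 4.18% at 4 nt. Overhangs of 5 to 9 nt did not differ by more than the lines did, at 7.22% and 8.30% for Cas9 and 8.99% and 9.37% for Jk1. The longest 3′ overhangs went the other way, since those of 20 nt or more held 4.60% and 4.03% at Cas9 and 1.05% and 1.75% at Jk1, which was called. Among odd lengths, 3′ overhangs held 19.1% and 23.7% at Cas9 and 26.6% and 26.6% at Jk1. These differences of −7.42 and −2.87 points had the same direction, but the smaller did not exceed the 4.55-point gap between the Cas9 lines, so the call was lost. It was also lost without the most abundant structure of each table, where the differences were −27.03 and −0.195 points. With each structure counted once the direction turned, to 5.62 and 9.45 points without a call, so the excess at Jk1 lay in the reads of a few abundant structures.

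**Figure D2:**
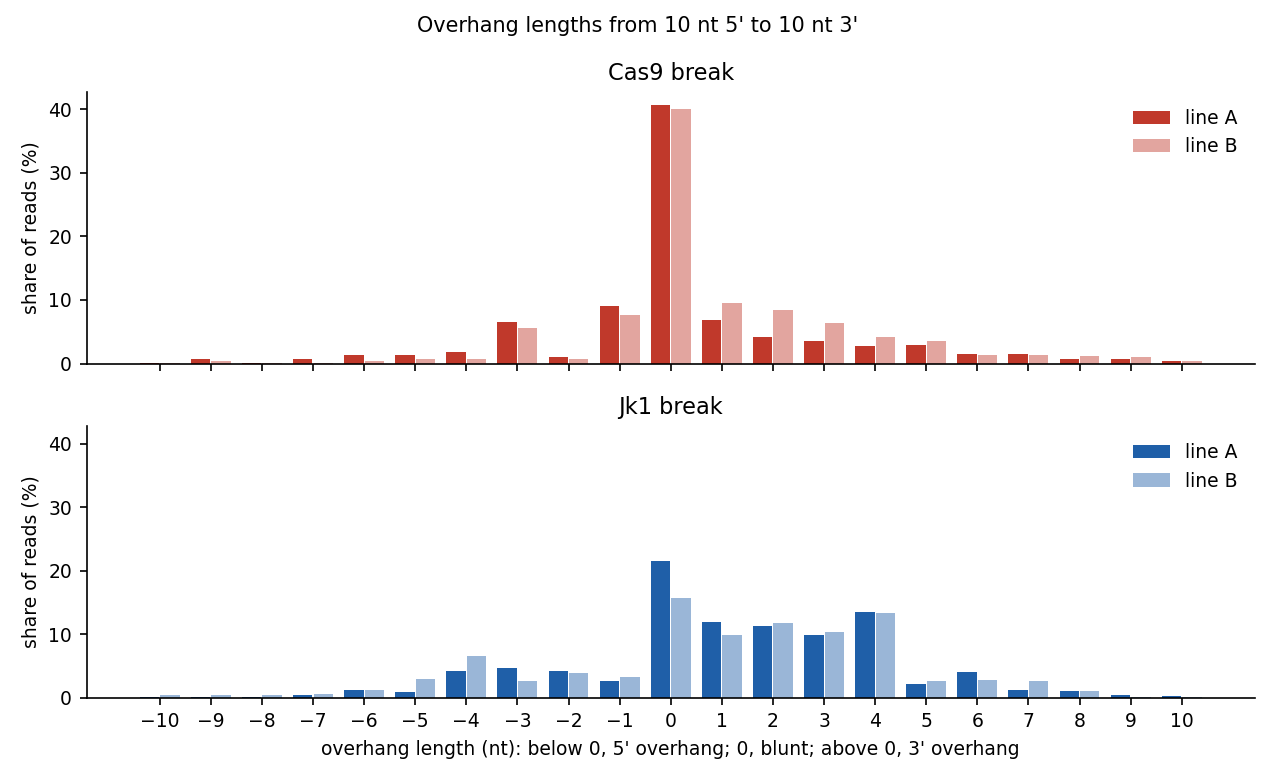
Share of reads (y axis, %) by overhang length (x axis, nt) at Cas9 (top) and Jk1 (bottom), with line A in the dark and line B in the pale bars. Blunt ends reach 40.7% and 40.0% at Cas9, while at Jk1 the 3′ overhangs of 1 to 4 nt form a plateau between 9.89% and 13.5%.

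5′ overhangs as a whole did not separate the breaks. They held 27.9% and 17.5% at Cas9 and 20.4% and 26.03% at Jk1, so that Cas9 was higher in line A and lower in line B. The shortest ones did. A 5′ overhang of 1 nt held 9.06% and 7.60% at Cas9 and 2.66% and 3.30% at Jk1, and the difference of 6.39 and 4.31 points was called. 5′ overhangs of 2 to 4 nt lay in the other order, at 9.55% and 7.05% for Cas9 and 13.2% and 13.1% for Jk1, also called. Within that class the lengths differed in direction. 3-nt overhangs held 6.59% and 5.60% at Cas9 and 4.65% and 2.61% at Jk1, higher at Cas9 in both lines. 2-nt overhangs held 1.08% and 0.666% at Cas9 and 4.27% and 3.96% at Jk1, and 4-nt overhangs 1.88% and 0.788% against 4.30% and 6.51%. The order of the class thus rests on the even lengths, which ties can move to or from blunt ends. Odd 5′ overhangs of 1 or 3 nt together, which ties cannot turn into blunt ends or 3′ overhangs, held 15.7% and 13.2% at Cas9 and 7.32% and 5.91% at Jk1. That difference of 8.34 and 7.29 points exceeded the largest gap between lines, 2.45 points, and was called. Ties could still exchange 5′ overhangs of 1 or 3 nt with longer odd ones. All 5′ overhangs of odd length, a set that ties do not mix, held 21.0% and 15.3% at Cas9. They held 9.80% and 11.4% at Jk1, the same direction without a call.

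The amount of loss did not distinguish Cas9 from Jk1 across lines. Ends with a 5′-strand loss of at least 10 nt, called resected here, held 36.4% (95% Clopper-Pearson interval 36.3 to 36.6) and 37.4% (37.3 to 37.6) at Cas9. At Jk1 they held 32.4% (32.3 to 32.6) in line A and 54.4% (54.2 to 54.6) in line B. Cas9 was thus 4.02 points higher in line A and 17.0 points lower in line B. The Cas9 lines lay 0.993 points apart and the Jk1 lines 22.0 points apart, so the sign of the mean difference was set by Jk1 in line B. The opposite signs held at 20 nt or more, with differences of 4.46 and −19.3 points, but not at 5 nt or more. At 5 nt or more the shares were 42.3% and 44.3% at Cas9 and 47.3% and 63.2% at Jk1. The differences were then −4.998 and −18.96 points, lower at Cas9 in both lines, without a call. Ends with 10 nt or more lost from both strands also had opposite signs, at 33.2% and 30.1% for Cas9 and 28.6% and 50.9% for Jk1. With 5 nt or more lost from both strands the signs stayed opposite, at 3.66 and −18.8 points. Means for resected ends were 36.9% ± 0.702 at Cas9 and 43.4% ± 15.5 at Jk1 (SD, n = 2 lines).

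**Figure D3:**
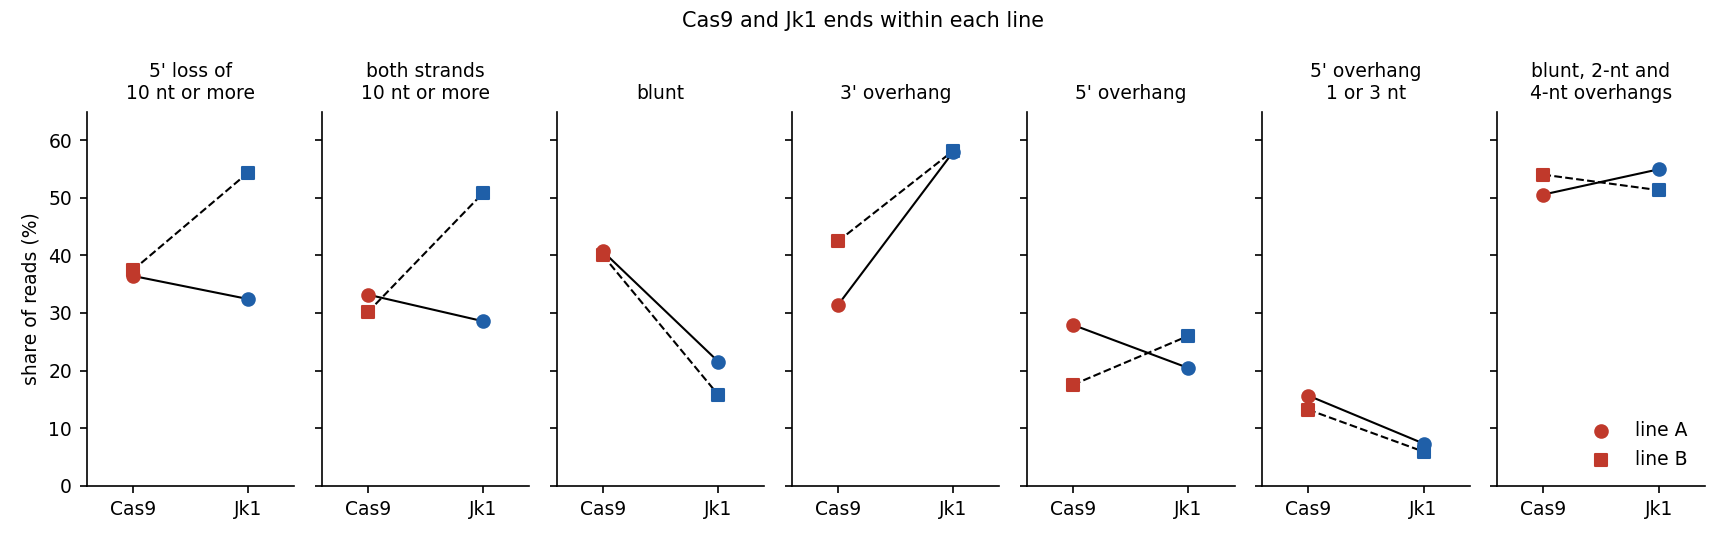
Share of reads (y axis, %) at Cas9 (red) and Jk1 (blue) for 7 kinds of end, 1 panel each, with line A as circles joined by a solid line and line B as squares joined by a dashed line. Lines A and B run the same way for blunt ends, 3′ overhangs and 5′ overhangs of 1 or 3 nt, and cross or diverge for resected ends, all 5′ overhangs and the pool of blunt, 2-nt and 4-nt ends.

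The whole distribution of loss shows where the lines part. Median 5′-strand loss was 2 and 4 nt at Cas9 and 4 and 13 nt at Jk1. The upper quartile was 23 and 18 nt at Cas9, and 15 and 105 nt at Jk1, where line B stands apart from the other 3 tables. Ends with a 5′-strand loss of at least 100 nt held 13.96% and 10.5% at Cas9 and 9.92% and 25.9% at Jk1. The highest losses listed were 181 and 181 nt at Cas9 and 181 and 171 nt at Jk1, so greater losses were not measured at either break. The titles of line B at Jk1 carry the tag shNT, as do those of its recombination substrate libraries and not those of line B at Cas9, and the part of that tag in the difference was not tested. Most resected Cas9 ends had lost 10 nt or more on both strands. The 5′-ending strand alone passed 10 nt in 3.25% and 7.29% of Cas9 reads and in 3.86% and 3.53% of Jk1 reads, and the 3′-ending strand alone in 1.22% and 0.336% and in 1.42% and 1.65%. When each structure was counted once, whatever its reads, 78.4% and 78.4% of Cas9 structures were resected. At Jk1 87.4% and 87.3% were, a called difference in the direction of line B. That test takes structures as independent units, which was not established. No Jk1 structure can lie outside its reference, whereas 41 and 38 Cas9 structures did and count as not resected.

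**Figure D4:**
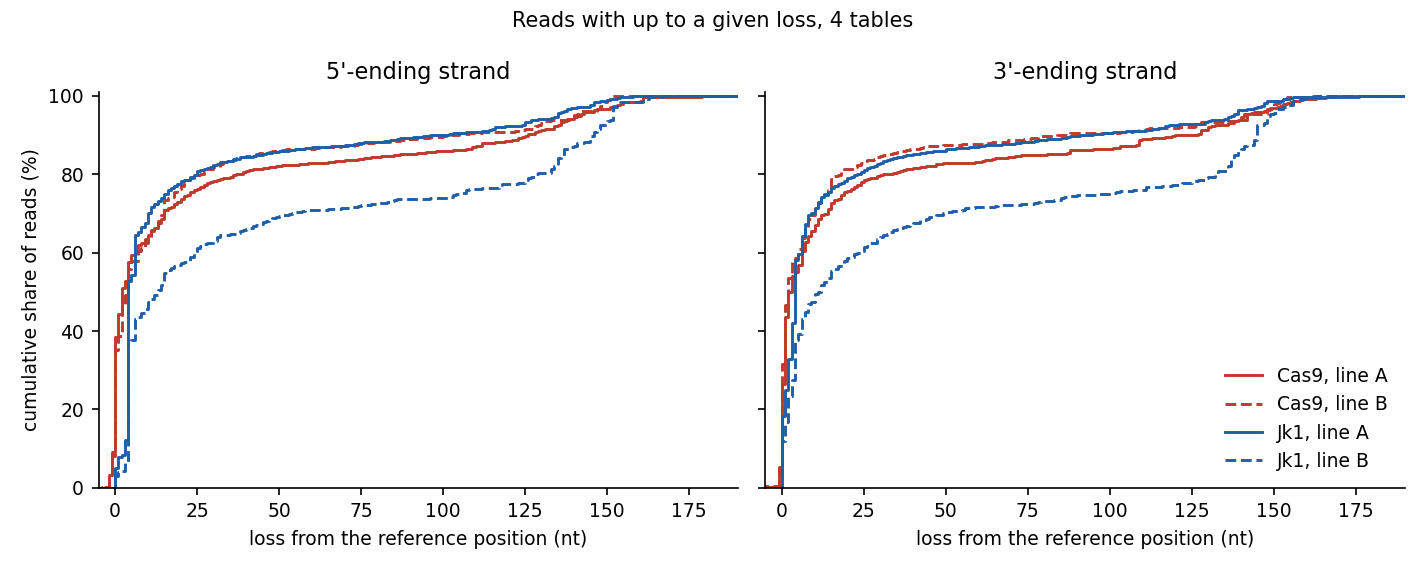
Cumulative share of reads (y axis, %) with up to a given loss (x axis, nt) from the 5′-ending strand (left) and the 3′-ending strand (right). Cas9 is red, Jk1 blue, line A solid and line B dashed. Cas9 in both lines and Jk1 in line A run close together beyond 10 nt, and Jk1 in line B lies below them, with 25.9% of reads at a 5′ loss of 100 nt or more.

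The kind of end was also compared at like loss. Among ends with a 5′-strand loss of 0 to 9 nt, blunt ends held 56.3% and 54.9% at Cas9 and 27.9% and 24.7% at Jk1, and 3′ overhangs held 16.6% and 30.6% at Cas9 and 58.2% and 60.5% at Jk1. Both differences were called, and ties apply to them as above. Further from the break the lines differed more from each other. At 60 to 99 nt 3′ overhangs held 53.2% and 65.9% at Cas9 and 48.8% and 24.5% at Jk1. Cas9 was thus higher there, by 4.44 points in line A and 41.4 points in line B, without a call. This direction was opposite to that at 0 to 9 nt. At 30 to 59 nt blunt ends held 16.8% and 17.7% at Cas9 and 13.1% and 11.3% at Jk1, the 1 called difference among the 12 tested at 10 nt or more. 3′ overhangs were the most common kind from 10 to 99 nt at Cas9, holding 69.0% and 87.3% of ends with 10 to 29 nt lost. At Jk1 they held 69.5% and 63.9% there. Over all resected ends 3′ overhangs held 61.4% and 68.7% at Cas9 and 57.7% and 56.3% at Jk1, a difference of 3.73 and 12.4 points opposite to that near the break and not called. Resected Cas9 ends had 5′ overhangs in 24.4% and 16.2% of reads, and resected Jk1 ends in 34.0% and 35.5%, a called difference. The Cas9 excess of 5′ overhangs of 1 nt therefore stood among all ends, while resected ends as a whole had fewer 5′ overhangs at Cas9.

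Cas9 reads gathered in fewer structures than Jk1 reads at the very top only. The most abundant structure held 20.6% ± 1.58 of reads at Cas9 and 10.2% ± 2.74 at Jk1 (SD, n = 2 lines). The difference was called, and the possible pooling of ties in the Cas9 structure also applies to it. At Jk1 the mean covers different structures, the blunt end in line A (12.1%) and the 4-nt 3′ overhang in line B (8.25%). Each was picked by the reads then compared, so the call is a description. The number of structures needed to hold 50% of reads was 15 and 13 at Cas9 and 9 and 25 at Jk1, and so did not order the breaks.

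Structure by structure, the lines matched each other near the Cas9 break and hardly at all far from it. The overlap, the sum over structures of the lower of both lines' shares, was 63.9% at Cas9 and 58.1% at Jk1. At Cas9 462 of 1022 structures were listed in both lines, and these held 90.5% of reads in line A and 91.4% in line B. At Jk1 408 of 1015 were listed in both and held 89.6% and 79.2%. At each break 8 of the 10 leading structures were shared by both lines, and of the 20 leading ones 12 at Cas9 and 14 at Jk1. Computed within zones of 5′-strand loss, the Cas9 overlap was 94.0% for ends outside the reference, 81.0% at 0 to 9 nt, 59.5% at 10 to 29 nt, 27.4% at 30 to 59 nt, 12.5% at 60 to 99 nt and 4.85% at 100 nt or more. At Jk1 it was 83.9%, 55.1%, 34.3%, 22.0% and 17.9% from 0 to 9 nt outward. The overlap of the lines thus fell with distance at both breaks.

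Among structures of 0.1% or more on average, 104 of 170 at Cas9 (61.2%) had shares over 2-fold apart between the lines, and 110 of 160 at Jk1 (68.8%). At Cas9 these were 19 of 51 structures with under 10 nt lost and 85 of 119 with 10 nt or more. The largest differences in share between the Cas9 lines were in the leading ends given above. The blunt end 1 nt inside the reference was 2.30 points higher in line A, the leading blunt end 2.23 points higher in line B, and the 1-nt 5′ overhang 1.81 points higher in line A. Far from the break single structures were abundant in 1 line and nearly unlisted in the other. The blunt end with 148 nt lost held 0.732% in line B with 4582 reads and was not listed in line A. The 1-nt 5′ overhang with a 5′-strand loss of 149 nt held 3539 reads in line B and 4 in line A. The blunt end with 128 nt lost was the far structure with the highest mean share, at 0.391% and 0.681%. At Jk1 the leading far structure, a 4-nt 5′ overhang with a 5′-strand loss of 135 nt, held 0.882% and 1.32%. The blunt end with 145 nt lost held 1.19% in line B and was not listed in line A. In all, 4 of the 1022 structures at Cas9 and 11 of the 1015 at Jk1 held 0.5% or more in 1 line and under 0.05% in the other. Each was high in line B and had over 100 nt lost. At 100 nt or more, 299 structures were listed at Cas9 and 290 at Jk1. At Jk1 line B held 25.9% of its reads there against 9.92% in line A, and at Cas9 10.5% against 13.96%. Ignoring which strand positions were combined raised the Cas9 overlap over all ends. It was 83.2% for overhang length alone and 81.3% for the 5′-strand position alone. For Cas9 ends with 100 nt or more lost these overlaps were 29.3% and 36.1%.

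**Figure D5:**
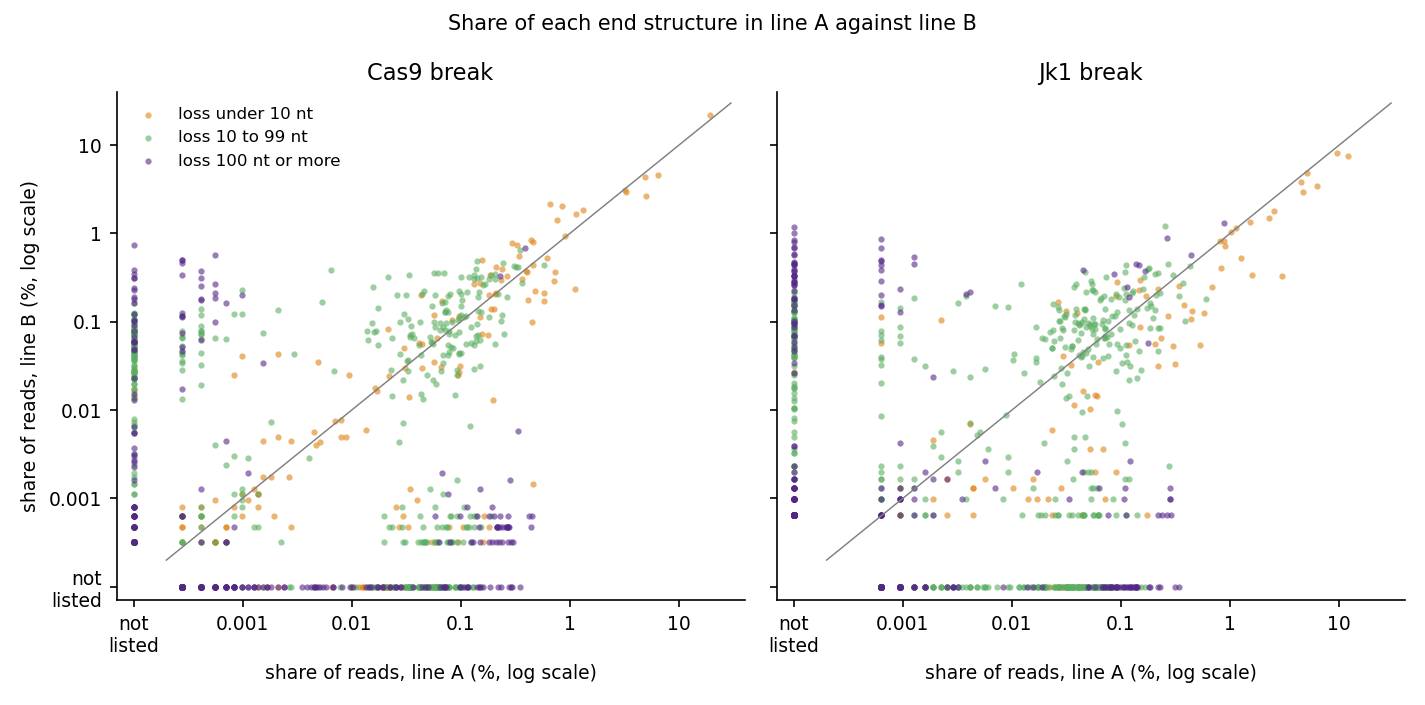
Share of reads of each end structure in line A (x axis) against line B (y axis), in % on log scales, at Cas9 (left) and Jk1 (right), coloured by loss from the 5′-ending strand, with the grey line at equal shares. Structures not listed in a line are drawn at the axis position marked so. Structures with under 10 nt lost lie nearest to the line of equal shares at the top, and those with 100 nt or more lost lie mostly along the edges.

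Other breaks of line A and line B show how far ends of 1 line can differ. In line B the zinc finger nuclease gave 33.8% resected ends against 37.4% at Cas9, and 9.47% blunt ends against 40.0%. The labels place it in run 8 with Cas9, but the list of read files puts it in another set than Cas9. Whether ties are listed alike at both breaks was not tested, which limits the comparison of blunt ends. At the recombination substrate cut by RAG in run 4, resected ends held 56.0% in line A and 57.9% in line B, whose titles carry shNT, against 32.4% and 54.4% at Jk1. Jk1 and the substrate had more similar blunt shares, at 21.6% and 15.8% against 18.5% and 18.9%. The gap between RAG breaks of line A in resected ends, 23.6 points, was larger than either difference between Cas9 and Jk1.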

How the data were processed

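Per the labels, G1-arrested Abelson pre-B cell DNA was ligated with a single-stranded DNA ligase, treated with bisulfite, amplified and sequenced in pairs. The authors deposited whole-number read counts per end structure, not normalised, with 3 libraries of a group pooled into 1 table. No aligner, filter or build is stated in the sources used here. The comparison, its reference positions and its lists were chosen with earlier results of these data known.

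The table's position was read as the end of the 5′-ending strand, and the other strand as that position minus the overhang. Shares have exact Clopper-Pearson 95% intervals. Each line's Cas9 and Jk1 tables were compared with Fisher's exact test, two-sided, adjusted (Benjamini-Hochberg) over 72 pairs. p-values too small to be represented are not printed. Medians and overlaps were not tested. Named structures were the 5 with the highest mean share at each break, the 3 largest line differences at Cas9, the Cas9 reference end with its 1-nt neighbours, the Jk1 end without loss, and the 3 leading structures with 20 nt or more lost at each break. The matching ends and those high in 1 line were chosen after seeing values, as were the tests by odd and even length. Python 3.11.15, pandas 2.3.3, numpy 2.4.6, scipy 1.17.1 and matplotlib 3.10.9 were used, and the calculation was tested on simulated data.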

Additional observations from a re-analysis of the deposited data

Results flagged for a closer look

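In 12 of the 36 comparisons, Cas9 lay above Jk1 in 1 line and below it in the other. The difference between lines was not tested, since each line has 1 table per break. Values are Cas9 minus Jk1 in percentage points.

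For all ends, the resected share differed by 4.02 in line A and −17.0 in line B, the share with both strands resected by 4.62 and −20.7, and the share of 5′ overhangs by 7.48 and −8.49. By length, 3′ overhangs of 10 to 19 nt differed by 1.10 and −0.0978, 5′ overhangs of 5 to 9 nt by 1.57 and −4.06, and 5′ overhangs of 10 nt or more by 3.19 and −2.71. Blunt ends pooled with 2-nt and 4-nt overhangs differed by −4.38 and 2.69.

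Within zones of loss, 5′ overhangs differed by 13.2 and −0.299 at 0 to 9 nt and by −12.3 and 0.322 at 100 nt or more. That last value, in line B, is the pair that did not pass the read test (Fisher's exact test, adjusted p = 0.220). 3′ overhangs differed by −0.523 and 23.4 at 10 to 29 nt and by 6.92 and −18.9 at 100 nt or more, and blunt ends by 8.24 and −1.53 at 10 to 29 nt.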

How the results depend on the processing

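Values are the mean over lines of Cas9 minus Jk1, in percentage points for shares and nt for medians. A reversal is a change in the sign of that mean. For 5′ overhangs the reported mean was −0.505, from lines of opposite sign and not called, so a reversal there overturns no called direction. No cause of a change was tested beyond how each alternative was built. Among alternatives with both lines, the mean difference in resected share stayed negative without a call in 12 of 13. Both lines lay on the same side in only 2 of the 13. In those 12 the mean ranged from −1.15 with the reference at each table's most abundant blunt structure to −11.98 at a 5-nt threshold. The blunt share kept its call in 7 of 10, falling to 5.49 without the 10 most abundant structures and to 6.37 in resected ends. The median difference was −1.5 nt with the reference at the most abundant blunt structure, against −5.5 nt as reported. Counting each structure once, with structures as the units tested, gave −8.98 for the resected share and −16.6 for both strands, both now called. It gave 7.54 for 3′ overhangs, a reversal, 1.99 for blunt ends, no longer called, and −15 nt for the median loss. Leaving out the most abundant structure, blunt except at Jk1 in line B, gave −13.6 for 3′ overhangs and 10.9 for blunt ends, neither called. It also gave 2.72 for 5′ overhangs, a reversal, and a Cas9 overlap of 56.0%. Leaving out the 10 most abundant gave 6.27 for 3′ overhangs, a reversal, −12 nt for the median and an overlap of 40.7%. Resected ends alone gave 8.08 for 3′ overhangs, a reversal, and −14.4 for 5′ overhangs, now called, and ends not resected gave 9.79 for 5′ overhangs, a reversal. With 1 line left out the call rule cannot be applied, and values ran from −17.0 to 4.02 for the resected share, from −20.7 to 4.62 for both strands and from −8.49 to 7.48 for 5′ overhangs, and reversed in each case without line B. They ran from −26.6 to −15.7 for 3′ overhangs and from 19.1 to 24.2 for blunt ends. Added after seeing the data, pooling blunt, 2-nt and 4-nt ends gave −0.846, a reversal, and odd lengths alone gave −5.15 for 3′ overhangs, no longer called, and 7.56 for 5′ overhangs, a reversal. The Cas9 overlap was 83.2% by overhang length, 81.3% by 5′ position and 78.3% by the sum of positions.

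No paired analysis was possible because each table pools its libraries, so library numbers cannot be used as a block, and the pairing by cell line is part of every comparison. With 2 lines, the gap between lines rather than depth limits the calls.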
